A study of Mus musculus with 10 samples.

Results

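Imprinted genes are described here in haematopoietic stem cells of mice with and without a knockout of Dhx16. Dhx16 encodes an RNA helicase that acts in pre-mRNA splicing. The 10 genes H19, Igf2, Igf2r, Meg3, Rian, Dlk1, Grb10, Ndn, Gnas and Plagl1 were taken by symbol, and all 10 were found among the 52097 genes of the deposited table. The study compared 5 control with 5 knockout samples of bone marrow. About 5000 cells a sample were sorted as lineage-negative, Sca-1+, c-Kit+, CD48- and CD150+ cells, and polyadenylated RNA was amplified with the Smart-Seq V4 kit and sequenced. The controls are titled Dhx16_fl and carry the genotype label WT. The knockouts are titled Dhx16_CKO. The recombinase and the cells that express it, any inducing treatment, and the age, sex and strain of the mice are not given in the sources used here, and neither is whether each sample came from its own animal. The p-values therefore measure the spread between these samples, which may be technical. The libraries are called by their column names in the table, WT2 to WT6 for the controls and CKO7, CKO8, CKO9, CKO12 and CKO13 for the knockouts.

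An imprinted gene is expressed mainly from the copy inherited from 1 parent, because methylation laid down in the egg or sperm at a control region marks the parental copies differently. Imprinted genes lie in clusters that often hold long noncoding RNAs beside genes of growth control. In haematopoietic stem cells they are known as a group tied to quiescence, and the maternally expressed noncoding RNAs of the Dlk1 to Dio3 domain, Meg3 and Rian, are known to mark long-term stem cells. RNA levels of a gene do not tell the parental copies apart, so imprinting itself was not measured here.

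The 10 genes lie on 6 chromosomes (GRCm38, the assembly of mm10, with GENCODE M21 gene models). H19, a maternally expressed long noncoding RNA, lies at chr7:142575529-142578143 on the minus strand. Igf2, a paternally expressed growth factor, lies at chr7:142650766-142666816 on the minus strand. Igf2r, the maternally expressed receptor that clears that growth factor, lies at chr17:12682406-12769664 on the minus strand. On chromosome 12 the plus strand carries Dlk1, a paternally expressed membrane protein related to Notch ligands, at chr12:109452823-109463336. Meg3 follows at chr12:109541001-109571726, and Rian, the host of a large snoRNA cluster, at chr12:109603940-109661716. Grb10, an adaptor that dampens insulin and IGF receptor signalling, lies at chr11:11930508-12038683 on the minus strand. Ndn, the MAGE family protein necdin, lies at chr7:62346569-62350262 on the plus strand. Gnas, which encodes the stimulatory G protein alpha subunit, lies at chr2:174284320-174346744 on the plus strand. Plagl1, a zinc finger transcription factor also called Zac1, lies at chr10:13060504-13131694 on the plus strand.

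The promoters of Meg3, Rian and Plagl1 are shown because the differences described below turn on these genes. Each is the RefSeq stretch from 250 bases before to 50 bases after the transcript start (GRCm38.p6), on the plus strand at chr12:109540746-109541045 for Meg3, chr12:109603695-109603994 for Rian and chr10:13090582-13090881 for Plagl1. Capitals mark matches on either strand to 4 motifs, each spelled out once. The cAMP response element was searched as TGACGTCA. The TATA box was searched as TATAAA. The CCAAT box was searched by its own letters. The GC box was searched as GGGCGG.
Meg3: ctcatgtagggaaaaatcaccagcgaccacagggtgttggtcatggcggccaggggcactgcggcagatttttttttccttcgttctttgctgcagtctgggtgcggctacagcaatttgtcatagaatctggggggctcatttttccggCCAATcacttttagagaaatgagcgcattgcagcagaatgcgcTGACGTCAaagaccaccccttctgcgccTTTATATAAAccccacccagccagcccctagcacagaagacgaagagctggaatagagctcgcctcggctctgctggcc
Rian: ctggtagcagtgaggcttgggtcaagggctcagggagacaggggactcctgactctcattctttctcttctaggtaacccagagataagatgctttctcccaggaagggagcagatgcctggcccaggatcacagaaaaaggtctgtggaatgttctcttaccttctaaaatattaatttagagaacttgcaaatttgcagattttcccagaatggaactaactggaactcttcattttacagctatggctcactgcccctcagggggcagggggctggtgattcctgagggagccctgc
Plagl1: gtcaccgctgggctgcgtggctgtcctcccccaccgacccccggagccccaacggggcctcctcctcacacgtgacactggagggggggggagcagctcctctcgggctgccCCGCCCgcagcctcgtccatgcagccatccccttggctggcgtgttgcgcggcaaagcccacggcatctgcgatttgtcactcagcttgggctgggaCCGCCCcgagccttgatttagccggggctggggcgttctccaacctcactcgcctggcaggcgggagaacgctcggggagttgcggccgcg
The Meg3 window holds the cAMP response element starting 57 bases before the transcript start, the CCAAT box 100 bases before it, and TATA boxes on both strands in overlapping matches 29 and 25 bases before it. Of 32851 RefSeq promoter windows of this length, 1.79% hold the cAMP response element, 13.6% the TATA box, 37.4% the CCAAT box and 35.7% the GC box. The Rian window holds none of the 4 motifs and no CpG. The Plagl1 window holds the GC box 138 and 41 bases before the start, and 26 CpG, against 13 in the Meg3 window and a median of 7 over all windows. These matches describe letters only, and binding was not measured.

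Meg3 and Rian also host microRNAs, whose mature RefSeq sequences are shown because both host RNAs were among the imprinted noncoding RNAs called lower. Capitals mark the seed, bases 2 to 8, which sets the targets of a microRNA.
mmu-miR-1906 in Meg3: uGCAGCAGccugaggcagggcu
mmu-miR-770-5p in Meg3: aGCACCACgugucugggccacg
mmu-miR-770-3p in Meg3: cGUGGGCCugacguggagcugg
mmu-miR-341-3p in Rian: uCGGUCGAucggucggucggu
mmu-miR-1188-5p in Rian: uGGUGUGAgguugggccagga
mmu-miR-370-3p in Rian: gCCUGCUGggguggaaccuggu
The 3 mature microRNAs matched to Meg3 and the 6 matched to Rian share no seed. This library type does not capture mature microRNAs, and the 67 microRNA genes between Dlk1 and Dio3 were listed at 0 in all 10 libraries.

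Levels are FPKM, fragments scaled by transcript length and library size, so they can be compared between genes. Read counts per library were not used, which leaves sequencing depth unknown, but the authors' scaling steps could be read from genes seen in a single library and gave relative sizes of 0.734 to 1.36. The targeted gene Dhx16 had 17.5 ± 3.81 FPKM in controls and 9.49 ± 1.56 in knockouts (SD, n = 5 each), without overlap (log2 change -0.81, limma adjusted p = 0.00127). In the comparison of all genes, limma was run on log2 (FPKM + 1) for the 13448 genes that reached 1 FPKM in 5 or more libraries, and a gene was called at a Benjamini-Hochberg adjusted p under 0.05. By this rule 49.7% of tested genes were called, 36.4% lower and 13.4% higher in the knockouts. In 32.8% of tested genes the control and knockout libraries did not overlap, in either direction. The split depends on how libraries are scaled: over the tested genes the change had a median of -0.26 on the deposited scale, -0.38 after scaling to equal totals, -0.04 with median-of-ratios factors, 0.08 after a shift to the authors' fold changes and 0.15 with upper-quartile factors. Higher genes made up 26.9%, 18.1%, 52.1%, 67% and 76.1% of the calls in that order. For the members, a direction or call that another scaling changes is therefore named beside the value.

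The 10 stem cell markers listed, among them Kit, Ly6a, Slamf1, Procr, Mecom, Hlf, Fgd5, Tek and Hoxb5, were above 0 in every library. They summed to 602 to 889 FPKM in controls and 420.2 to 654 in knockouts, and 8 of 10 were called lower. All marker calls here use the values as deposited, with which 36.4% of all tested genes were called lower and 13.4% higher. Marker calls were not counted under the other scalings. RNAs listed as markers of other cells were present too. Which cells these RNAs came from was not measured, and the sorted stem cells themselves may be a source. The 6 macrophage markers summed to 117 to 272 FPKM in controls and 10.6 to 27.5 in knockouts, and all 6 were called lower. The 8 erythroid markers summed to 120 to 397 FPKM in controls and 753 to 1177 in knockouts, and all 8 were called higher. The 5 megakaryocyte markers summed to 1407 to 2114 FPKM in controls and 699 to 1375 in knockouts, and all 5 were called lower. The 5 endothelial markers summed to 83.8 to 101.7 FPKM in controls and 31.6 to 41.7 in knockouts, and 3 of the 4 tested were called lower. The 10 bone matrix and stroma markers summed to 3216 to 66075 FPKM in controls and 4566 to 47858 in knockouts, highest in WT6 and CKO13. The 6 granulocyte markers summed to 9623 to 74170 FPKM in controls and 8348 to 40842 in knockouts, and none was called. The B cell sum, the T and NK cell sum and Cd48, which the sort selected against, overlapped between the groups too. In these bulk samples, fewer cells of a type and less RNA per cell cannot be told apart.

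Gnas was by far the most abundant of the 10 imprinted genes, and Dlk1, Igf2, H19 and Plagl1 the least. In controls the mean FPKM ran in the order Gnas (222), Grb10 (17.8), Meg3 (15.1), Ndn (10.1), Rian (2.30), Igf2r (1.59), Plagl1 (0.818), H19 (0.518), Igf2 (0.456) and Dlk1 (0.250). Among neighbours in that order, Gnas and Grb10 did not overlap and neither did Ndn and Rian, while the libraries of every other pair overlapped. In knockouts the order was Gnas (209), Grb10 (13.9), Ndn (7.60), Meg3 (2.57), Igf2r (1.78), Rian (1.11), Dlk1 (0.246), Plagl1 (0.244), H19 (0.216) and Igf2 (0.194). Meg3 thus stood above Ndn in control means and below it in every knockout library.

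**Figure D1:**
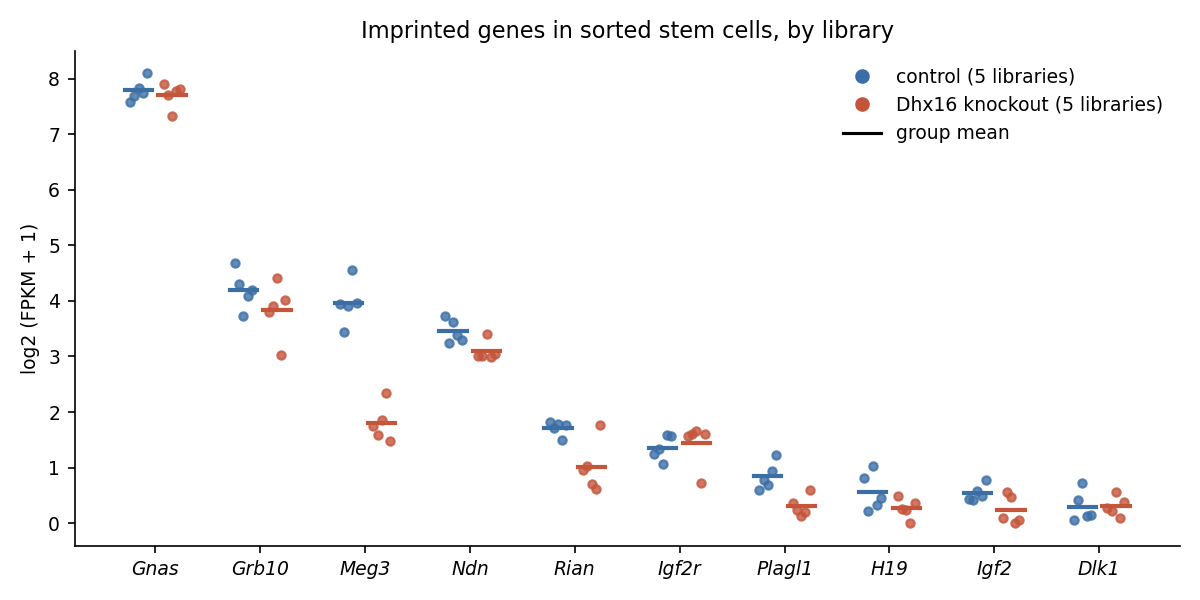
Each point is 1 library and each bar the group mean, on a log2 (FPKM + 1) axis, for the 10 imprinted genes ordered by their control mean, with controls in blue and Dhx16 knockouts in red. Meg3 is the gene with the widest gap between the groups (15.1 against 2.57 FPKM), and Gnas the highest in both.

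Of the 10 genes, 6 passed the filter on low values and were tested, and 3 of these (Meg3, Rian and Ndn) were called lower, none higher and 3 not called, beside 36.4% of all tested genes called lower. Only Meg3 was called lower with the values as deposited and under all 4 other scalings, as were 10.4% of all tested genes. H19, Igf2, Dlk1 and Plagl1 were below the filter and were compared by an exact permutation test over the 252 assignments of 5 against 5 libraries, whose smallest possible p is 0.00794.

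Meg3, the noncoding RNA of the maternal Dlk1 to Dio3 copy, fell in every knockout library. Its control values were 14.40 (WT2), 9.89 (WT3), 14.03 (WT4), 22.59 (WT5) and 14.58 FPKM (WT6). Its knockout values were 2.36 (CKO7), 1.99 (CKO8), 2.61 (CKO9), 4.09 (CKO12) and 1.78 FPKM (CKO13). Every knockout library lay below every control library, and 32.8% of all tested genes had groups that did not overlap, in either direction. Mean levels were 15.1 ± 4.61 and 2.57 ± 0.911 FPKM (SD, n = 5 each), a 5.88-fold difference of means. The log2 change on log2 (FPKM + 1) was -2.16 (SE 0.21, 95% CI -2.62 to -1.71, limma adjusted p = 2.59e-05), and it lay between -2.52 and -1.75 over all alternatives that kept the gene, each of them called. Within a library, Meg3 ranked at the 47.5 to 69.4 percentile of the tested genes in controls and at the 15.4 to 34.9 percentile in knockouts, a measure that does not depend on scaling between libraries. The authors' deposited table gives a log2 fold change of -1.96 (SE 0.25, adjusted p = 2.36e-13) at a mean normalized count of 187.

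Meg3 is a long intergenic noncoding RNA. Of 214 such RNAs tested, 103 were called lower (48.1%) and 14 higher, with a median change of -0.46, beside 36.4% lower and a median of -0.26 over all tested genes. By mean level Meg3 was number 30 of these RNAs in controls and number 90 in knockouts. Its fall was number 2 among them and number 42 among all 13448 tested genes. Meg3 shares 1228 exonic bases with the opposite-strand noncoding gene Gm26906, which was not analysed here, and the strand setting of the counting is not given, so reads from the shared stretch cannot be told apart.

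**Figure D2:**
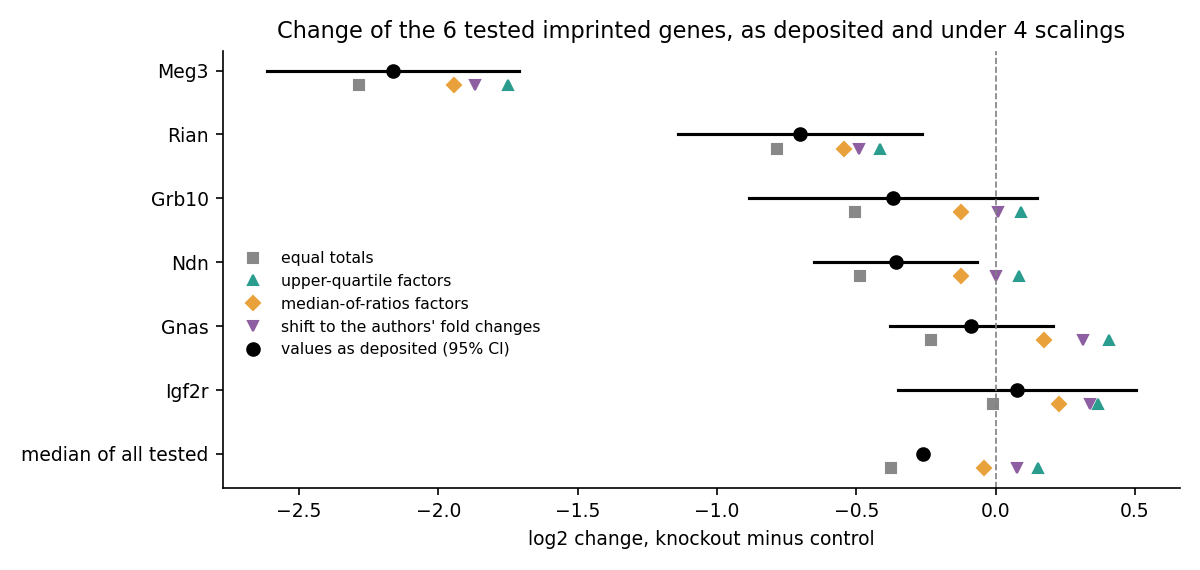
Log2 change, knockout minus control, of the 6 tested imprinted genes with the values as deposited (black, bars 95% CI) and under 4 other scalings (coloured), with the median of all tested genes in the last row. Meg3 stays between -2.28 and -1.75 under the scalings, while Ndn, Grb10, Gnas and Igf2r lie on both sides of 0.

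Rian, the noncoding RNA that follows Meg3 on the same strand, was lower in 4 of the 5 knockout libraries. Its control values were 2.55, 2.28, 2.45, 1.81 and 2.42 FPKM (WT2 to WT6). Its knockout values were 0.95, 1.03, 0.64, 0.54 and 2.40 FPKM (CKO7, CKO8, CKO9, CKO12 and CKO13). CKO13 lay inside the control range and the other 4 knockout libraries lay below it. Mean levels were 2.30 ± 0.292 and 1.11 ± 0.749 FPKM (SD, n = 5 each), and the log2 change was -0.70 (SE 0.20, 95% CI -1.14 to -0.26, limma adjusted p = 0.0122). Without CKO13 the change was -0.89 (limma adjusted p = 0.00105). The call was lost with median-of-ratios factors (-0.54, limma adjusted p = 0.0501), after the shift to the authors' fold changes (-0.49, adjusted p = 0.095) and with upper-quartile factors (-0.42, adjusted p = 0.106). Rian reached 1 FPKM in 7 libraries, among them its 5 controls, so it passed the filter through the group where it was high. The authors' deposited table gives -0.89 (adjusted p = 0.0283).

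Meg3 and Rian did not keep 1 ratio across libraries. The ratio of their FPKM was 5.65, 4.34, 5.73, 12.5 and 6.02 in WT2 to WT6. It was 2.48, 1.93, 4.08, 7.57 and 0.742 in CKO7, CKO8, CKO9, CKO12 and CKO13. The lowest ratio was in CKO13, where Rian stood at its control level and Meg3 did not, and the groups overlapped. The log2 ratio was 2.67 ± 0.572 in controls and 1.36 ± 1.25 in knockouts (SD, n = 5 each, two-sided exact permutation p = 0.0635), so the difference of -1.32 was not larger than the spread by this test. Without CKO12 the difference was -1.71 (exact permutation p = 0.0159). This measure was chosen after its values were seen.

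Dlk1, the paternally expressed gene that opens the domain, was barely detected in either group. Its values ran from 0.04 to 0.66 FPKM in controls and from 0.07 to 0.48 in knockouts, with means of 0.250 ± 0.256 and 0.246 ± 0.155 (SD, n = 5 each, two-sided exact permutation p = 0.960). The ranges overlapped almost entirely. At the authors' mean normalized count of 5.11, a moderate difference was not detectable.

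Further along the domain, which spans 828 kb and 116 genes of the table, Meg3 and Rian were the genes that passed the filter. Meg3 starts 77.7 kb beyond the end of Dlk1, and Rian 32.2 kb beyond the end of Meg3. Mirg, a microRNA host on the maternal copy, had 0.69, 0.54, 0.41, 0.21 and 0.38 FPKM in WT2 to WT6 and 0.17, 0.31, 0.00, 0.09 and 0.05 in the knockouts (CKO7, CKO8, CKO9, CKO12 and CKO13). The groups overlapped, with means of 0.446 and 0.124 (two-sided exact permutation p = 0.0159). The authors' deposited table gives Mirg an adjusted p of 0.224. Rtl1, a paternally expressed gene of retrotransposon origin, had means of 0.112 and 0.034 FPKM (exact permutation p = 0.0159), and Dio3, the thyroid hormone deiodinase that ends the domain, 0.022 and 0.016.

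**Figure D3:**
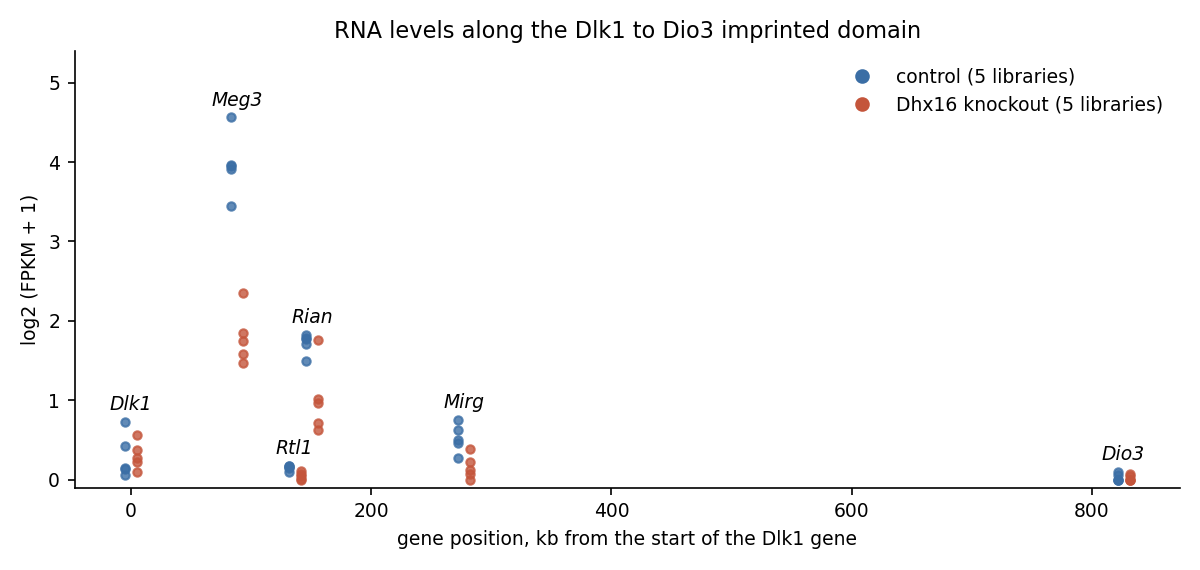
Points are single libraries on a log2 (FPKM + 1) axis, placed by gene position in kb from the start of Dlk1, for Dlk1, Meg3, Rtl1, Rian, Mirg and Dio3, with controls in blue and Dhx16 knockouts in red. Meg3 and Rian rise above the others, and Meg3 separates the groups (9.89 to 22.59 against 1.78 to 4.09 FPKM).

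Plagl1, the zinc finger factor, was low in all libraries. With the values as deposited it was lower in each knockout library than in any control. Its control values were 0.52, 0.72, 0.60, 0.92 and 1.33 FPKM (WT2 to WT6). Its knockout values were 0.29, 0.18, 0.09, 0.15 and 0.51 FPKM (CKO7, CKO8, CKO9, CKO12 and CKO13). The groups met without overlapping, between CKO13 at 0.51 and WT2 at 0.52. Mean levels were 0.818 ± 0.323 and 0.244 ± 0.165 FPKM (SD, n = 5 each), a 3.35-fold difference of means, and the two-sided exact permutation p was 0.00794, the smallest this design can give. Among genes above 0 in some library but below the filter, 3.99% had groups that did not overlap, in either direction. That set includes genes seen in a single library, which cannot separate the groups, while Plagl1 was above 0 in every library. Among tested genes the share without overlap was 32.8%. In a fit without the filter the limma adjusted p was 0.0324, and the authors' deposited table gives -1.52 (SE 0.46, adjusted p = 0.00456) at a mean normalized count of 18.4. Under 3 of the 4 other scalings the groups overlapped, and the exact permutation p was 0.0238 to 0.0317. The log2 change on log2 (FPKM + 1) was -0.54, which understates the change of so low a gene.

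H19 and Igf2, neighbours on chromosome 7 whose expression is known to be governed by the same control region, were both near the limit of detection. H19 had 0.76, 0.16, 1.04, 0.26 and 0.37 FPKM in WT2 to WT6 and 0.41, 0.20, 0.18, 0.00 and 0.29 in the knockouts (CKO7, CKO8, CKO9, CKO12 and CKO13). Its groups overlapped (means 0.518 ± 0.370 and 0.216 ± 0.151, SD, n = 5 each, two-sided exact permutation p = 0.151). Igf2 had 0.35, 0.33, 0.49, 0.40 and 0.71 FPKM in WT2 to WT6 and 0.07, 0.48, 0.38, 0.00 and 0.04 in the knockouts (in the same order). CKO8 and CKO9 lay within the control range and the other 3 knockout libraries below it (means 0.456 ± 0.155 and 0.194 ± 0.220, SD, n = 5 each, two-sided exact permutation p = 0.0873). Without CKO8 the exact permutation p of Igf2 was 0.0476. Igf2 shares 3596 of its 5723 exonic bases with the same-strand protein-coding gene Gm49394, which was not analysed here. Reads from that shared stretch cannot be told apart. The authors' deposited table gives neither gene an adjusted p under the threshold (0.237 for H19 and 0.108 for Igf2, at mean normalized counts of 3.79 and 4.47).

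Ndn, which encodes necdin, a protein known to restrain proliferation of stem cells, was somewhat lower in FPKM but kept its rank within the libraries. Control libraries had 12.17, 8.46, 11.33, 9.51 and 8.81 FPKM (WT2 to WT6). Knockout libraries had 7.07, 7.09, 9.65, 6.95 and 7.25 FPKM (CKO7, CKO8, CKO9, CKO12 and CKO13). CKO9 lay within the control range and the other 4 knockout libraries below it. The log2 change was -0.36 (SE 0.14, 95% CI -0.65 to -0.07, limma adjusted p = 0.0425). This call was lost with median-of-ratios factors (-0.12, limma adjusted p = 0.326), and the direction turned with upper-quartile factors (0.08, adjusted p = 0.599) and after the shift to the authors' fold changes (0.00, adjusted p = 0.992). Leaving out any 1 of WT2, WT4, WT5, CKO7, CKO8, CKO12 or CKO13 also ended it. Ndn ranked at the 43.5 to 49.9 percentile of tested genes in controls and at 44.0 to 49.9 in knockouts. The authors' deposited table gives 0.01 (adjusted p = 0.958).

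Grb10, the adaptor, was not called under any setting. The controls had 24.78, 18.68, 12.33, 15.91 and 17.38 FPKM (WT2 to WT6), and the knockouts 13.01, 14.03, 20.17, 7.14 and 15.15 (CKO7, CKO8, CKO9, CKO12 and CKO13). The groups overlapped widely, with CKO12 lowest. The log2 change was -0.37 (SE 0.24, 95% CI -0.88 to 0.15, limma adjusted p = 0.213), and it turned to 0.09 with upper-quartile factors. The authors' deposited table gives 0.09 (adjusted p = 0.789).

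Igf2r, the clearance receptor, was not called under any setting. The controls held 1.38, 1.51, 1.08, 2.01 and 1.95 FPKM (WT2 to WT6), and the knockouts 1.97, 2.04, 2.16, 0.66 and 2.05 (CKO7, CKO8, CKO9, CKO12 and CKO13). In the knockouts 4 libraries lay together near 2 FPKM and CKO12 stood apart below all controls. The log2 change was 0.08 (SE 0.20, 95% CI -0.35 to 0.50, limma adjusted p = 0.761). It was -0.01 after scaling to equal totals, 0.34 after the shift to the authors' fold changes, 0.37 with upper-quartile factors and 0.25 (limma adjusted p = 0.187) without CKO12. The authors' deposited table gives 0.52 (adjusted p = 0.150). Airn, the antisense noncoding RNA that silences Igf2r on the paternal copy, overlaps the Igf2r gene body without sharing an exonic base. Airn had means of 3.65 and 1.79 FPKM and was called lower (log2 change -0.77, limma adjusted p = 0.0120), though not under every scaling. For Airn the authors' deposited values are -0.64 and a DESeq2 adjusted p of 0.117.

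Gnas, the G protein subunit, was high in all 10 libraries. Its control values were 189.58, 205.58, 227.79, 214.07 and 272.74 FPKM (WT2 to WT6), and its knockout values 238.71, 206.81, 159.47, 217.25 and 223.79 (CKO7, CKO8, CKO9, CKO12 and CKO13). The groups overlapped. The log2 change was -0.09 (SE 0.14, 95% CI -0.38 to 0.21, limma adjusted p = 0.612). The sign depended on scaling, from -0.23 at equal totals to 0.41 with upper-quartile factors, where Gnas was called higher (limma adjusted p = 0.0484). Gnas shares 988 exonic bases with its antisense gene Nespas (means 0.470 and 0.534 FPKM). The row sums all Gnas transcripts, so those from the imprinted first exons cannot be told apart from the rest.

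Summed markers of several other cell types separated the groups as Meg3 did. Among all single tested genes, 32.8% had groups that did not overlap, in either direction. The 6 macrophage markers were lower in every knockout library than in any control (117 to 272 against 10.6 to 27.5 FPKM), as was Meg3, and none of the 6 was at 0 in any library. The endothelial and megakaryocyte sums were lower in every knockout library too, and the erythroid sum higher. The granulocyte sum, the B cell sum and the T and NK cell sum overlapped between the groups, as did the bone matrix and stroma sum. Without WT6 and CKO13, the libraries highest in bone matrix and stroma markers, the change of Meg3 was -2.08 (limma adjusted p = 0.000298). No such fit was made for the marker sums that separated the groups. Whether other cells had a part in the Meg3 difference was not tested.

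**Figure D4:**
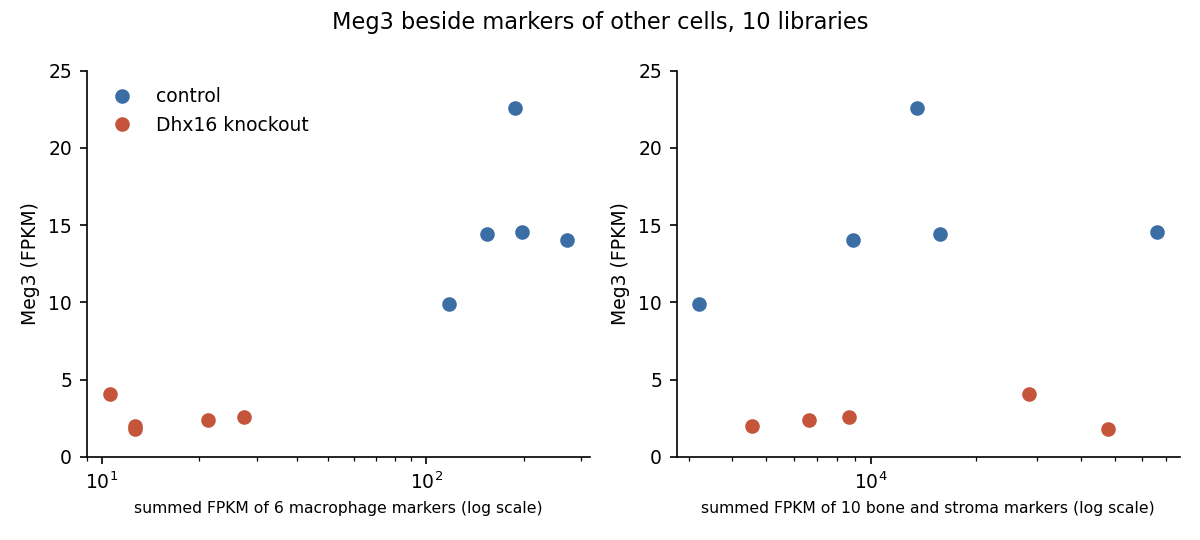
Meg3 in FPKM against the summed FPKM of 6 macrophage markers (left) and of 10 bone and stroma markers (right), both on log axes, 1 point a library, controls in blue and Dhx16 knockouts in red. The macrophage sum separates the groups as Meg3 does, and the bone and stroma sum does not. Of all tested genes, 32.8% had groups that did not overlap, in either direction.

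Among 62 other imprinted genes on a list written from textbook knowledge, 35 were tested, of which 20 were called lower (57.1%), 2 higher and 13 not called, with a median change of -0.48. Over all tested genes 36.4% were called lower and 13.4% higher, with a median of -0.26. The 7 called lower with the values as deposited and under all 4 other scalings were Cdkn1c, Slc22a18, Ppp1r9a, Mest, Copg2, Zrsr1 and Phactr2. Of all tested genes 10.4% were called lower in this way. Mest, a paternally expressed hydrolase-like protein, had 8.48, 49.40, 30.56, 29.21 and 24.37 FPKM in WT2 to WT6 and 0.32, 0.14, 1.05, 3.27 and 1.87 in the knockouts (CKO7, CKO8, CKO9, CKO12 and CKO13), without overlap (log2 change -3.64, SE 0.49, limma adjusted p = 0.000325). Cdkn1c, the maternally expressed cyclin-dependent kinase inhibitor p57 known to hold stem cells quiescent, had 11.2 ± 1.96 FPKM in controls and 4.02 ± 1.56 in knockouts (SD, n = 5 each). Its 5 knockout libraries lay below its 5 controls (log2 change -1.34, SE 0.24, limma adjusted p = 0.000858). Groups did not overlap in 32.8% of all tested genes. Mest reached 1 FPKM in 8 libraries, among them its 5 controls, so it passed the filter through the group where it was high. Slc22a18 (9.67 against 4.18 FPKM) and Ppp1r9a (10.8 against 4.65) changed by -1.07 and -1.04. The 2 genes called higher were Nap1l4 (0.34, limma adjusted p = 0.0172) and Cd81 (0.32, adjusted p = 0.0336), neither of them under every scaling. The number called lower ranged from 7 to 25 over the alternatives and the number called higher from 0 to 4, with 0 at equal totals. It was 1 when any of WT3, WT5, WT6, CKO7, CKO8, CKO9 or CKO12 was left out. Over all tested genes the alternatives gave 1404 to 5879 called lower and 1298 to 4463 called higher. The 27 genes that were not tested had group means of at most 1.12 FPKM. That highest mean was of Snurf in knockouts, against 0.12 in controls, while most of the 27 had a lower mean in knockouts.

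**Figure D5:**
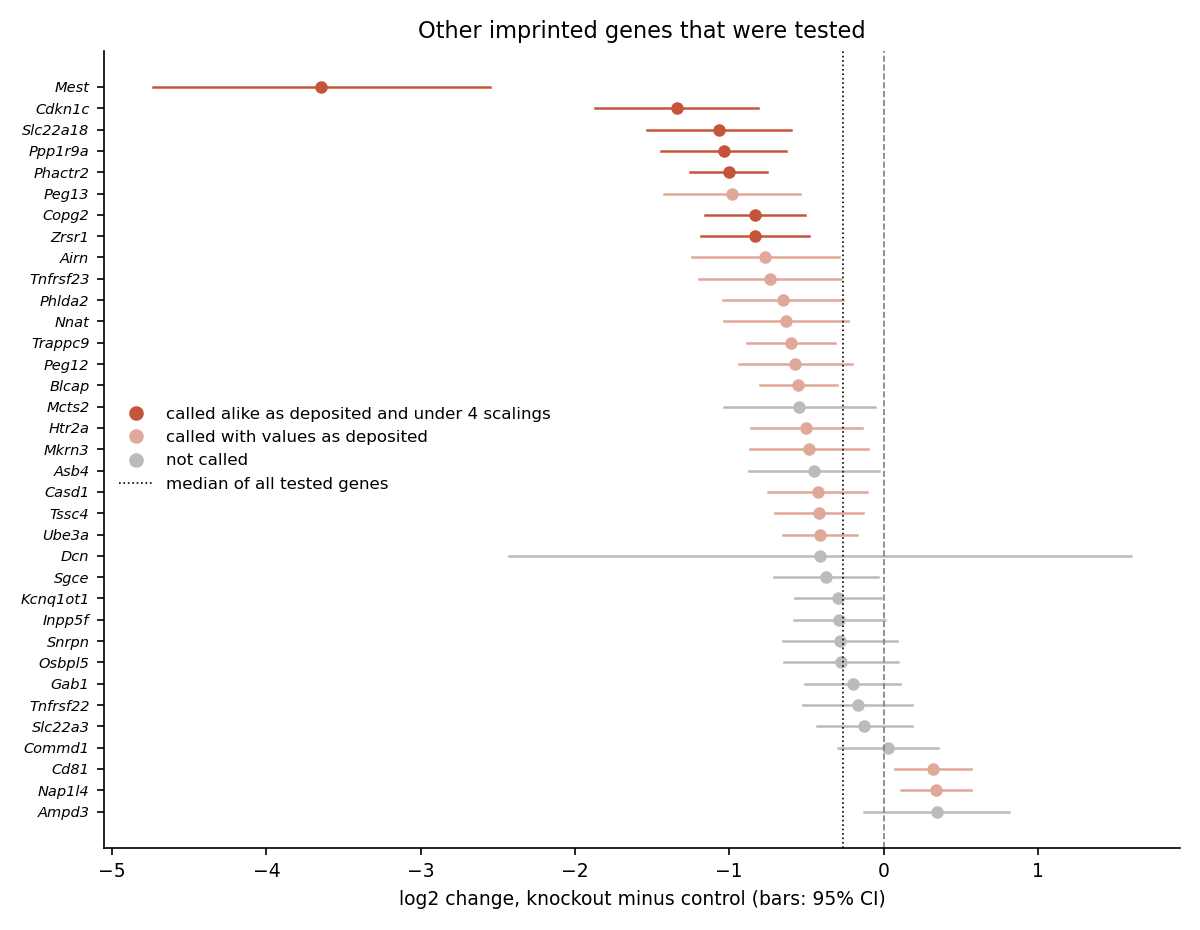
Log2 change, knockout minus control, with 95% CI, of the 35 tested genes among 62 other imprinted genes, with the median of all tested genes as a dotted line at -0.26. Dark red marks the 7 genes called under the values as deposited and 4 other scalings, light red the other called genes and grey those not called; Mest has the largest fall (-3.64).

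The partners of Igf2, Igf2r and Grb10 in IGF signalling included several genes that fell. Of 41 listed genes 35 were tested, with 18 called lower, 1 higher and 16 not called (51.4% lower, beside 36.4% of all tested genes), and a median change of -0.38. Igf1, the ligand related to Igf2, fell from 7.69 ± 2.51 to 0.956 ± 0.244 FPKM (SD, n = 5 each, log2 change -2.12, limma adjusted p = 2.0e-05). Igf1r, the receptor that both ligands use, fell from 16.6 ± 3.52 to 7.51 ± 1.22 FPKM (log2 change -1.04, limma adjusted p = 0.000298). Igfbp5, a secreted binding protein, had means of 3.28 and 0.218 FPKM (-1.68), and Igf2bp2, an RNA-binding protein of Igf2 transcripts, 5.33 and 2.13 (-1.04). Igf1 reached 1 FPKM in 7 libraries, among them its 5 controls, and Igfbp5 in its 5 controls alone. Both thus passed the filter through the group where they were high. Igf1, Igf1r, Igfbp5, Igf2bp2 and Irs2 were among 6 genes of the list called lower under every scaling tried, as were 10.4% of all tested genes. Pik3r2, a regulatory subunit of phosphoinositide 3-kinase, was called higher (0.45, limma adjusted p = 0.0249), but not in the fit without a filter (adjusted p = 0.0752). No gene of the list was called higher at equal totals or when WT4, WT5, CKO7 or CKO8 was left out. The number called lower ranged from 6 to 21 over the alternatives and the number called higher from 0 to 7. Over all tested genes these ranges were 1404 to 5879 and 1298 to 4463.

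Listed genes tied to imprint maintenance were called in both directions, with a share called lower near that of all tested genes. The list also held enzymes that set new methylation, such as Dnmt3a, or oxidise methylated cytosine, such as Tet1 and Tet3. Its counts thus combine different roles. Of 33 listed genes 27 were tested, with 9 called higher, 10 lower and 8 not called, and a median change of -0.18. The share called lower was 37.0%, beside 36.4% of all tested genes, and the share called higher 33.3%, beside 13.4%. Over the alternatives 5 to 13 were called higher and 2 to 12 lower, beside 1298 to 4463 and 1404 to 5879 of all tested genes. Uhrf1, which brings the maintenance methyltransferase to newly copied DNA, rose from a mean of 35.6 to 85.4 FPKM (log2 change 1.27). Hells, Cbx3, Trim28 and Naa10 were called higher as well (1.09, 0.79, 0.64 and 0.63), these 5 under every scaling tried. Of all 13448 tested genes, 1298 were called higher under every scaling. Dnmt1, the maintenance methyltransferase, had means of 39.8 and 61.7 FPKM (0.61, limma adjusted p = 0.0273). Tet1 and Tet3, which oxidise methylated cytosine, were called lower under every scaling tried (-0.98 and -0.91), as were 10.4% of all tested genes. Dnmt3a, a methyltransferase that sets new methylation, and Arid4a, a chromatin protein, were called lower with the values as deposited (-0.70 and -0.63), though, like Dnmt1 and Ctcf, not under every scaling. Ctcf, which binds the unmethylated control region between H19 and Igf2, had means of 15.6 and 9.60 FPKM (-0.65, limma adjusted p = 0.000817), while the authors' deposited table gives 0.07 (adjusted p = 0.675).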

How the data were processed

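RNA of sorted stem cells was measured in 5 control and 5 Dhx16 knockout samples. The submitters' processing notes name Bowtie 0.12.9, Cufflinks 2.1.1, HTSeq and mm10, without roles; the strand setting is not given in the sources used here. The deposited library columns are taken as FPKM, a unit inferred from their values. The deposited mean normalized count is a signal scaled by the authors with DESeq2, which also gave the deposited log2 fold changes with their errors, the deposited test statistic (a score) and each deposited p-value. Columns were assigned to groups by name, since their numbers differ from those of the sample titles.

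The values were tested as deposited, on log2 (FPKM + 1), with limma 3.58.1 (trend, robust; R 4.3.3) over the 13448 genes that reached 1 FPKM in 5 or more libraries, with Benjamini-Hochberg adjustment over all of them. The fit was tested on simulated data. Members below that filter had two-sided exact permutation tests. Alternatives were another pseudocount (0.1), a 10 FPKM filter, no filter, 4 scalings, a bone matrix covariate, library weights, no trend and leaving out libraries. Reads per library were not recovered, so the depth is unknown. All 52097 identifiers matched GENCODE M21. Sequences came from RefSeq (GRCm38.p6); H19 has no promoter shown.

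Members and lists were chosen with earlier results of these data known. Named genes were the 10 members, Dhx16, in each list up to 5 genes called higher and up to 5 called lower by size of change, plus Cdkn1c, Igf1r, Dnmt1 and Ctcf, the nearest tested protein-coding genes beside a member and the 2 genes most like each tested member; a few genes these rules or lists hold are not reported here. Mirg, Rtl1, Dio3, Airn, Nespas, Snurf and the genes called under every scaling were named after their values were seen.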

Additional observations from a re-analysis of the deposited data

Results flagged for a closer look

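In 6 of the 70 groups of 5 libraries examined, 1 library stood apart from the others by a gap of more than 0.71 of the group's whole range. A test at this level marks about 1 in 20 groups by chance. Igf2r in the knockouts was lowest in CKO12, at 0.66 FPKM, with the next library at 1.97. Rian in the knockouts was highest in CKO13, at 2.40 FPKM, with the next at 1.03. Ndn in the knockouts was highest in CKO9, at 9.65 FPKM, with the next at 7.25. Among the listed genes, Igfbp5 in the controls was highest in WT6, at 7.33 FPKM, with the next at 2.96. Igf2bp2 in the knockouts was highest in CKO8, at 3.69 FPKM, with the next at 1.92. Cbx3 in the controls was highest in WT4, at 141.4 FPKM, with the next at 79.41. The 6 values fell in 6 different libraries.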

How the results depend on the processing

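Of 190 values of the members under the alternatives, 172 kept their direction or stayed uncalled and kept their side of the threshold. Another 14 lost a call, 2 gained one and 2 turned. For members below the filter a call here meant an unadjusted exact permutation p under 0.05, save in the fit without a filter. Ndn turned with upper-quartile factors (0.084) and after the shift to the authors' fold changes (0.0021). It lost its call without a filter (-0.36), with median-of-ratios factors (-0.12), with the bone matrix covariate (-0.37) and without WT6 and CKO13 (-0.39), and ranged from -0.44 to -0.29 when single libraries were left out. Rian lost its call with upper-quartile (-0.42) and median-of-ratios factors (-0.54) and after the shift (-0.49), and ranged from -0.89 to -0.60 without single libraries. Gnas gained a call with upper-quartile factors (0.41). Igf2 ranged from -0.38 to -0.24 without single libraries, and without CKO8 its unadjusted exact permutation p was 0.0476. The cause was not tested. Under a 10 FPKM filter Gnas and Grb10 were the members still tested.

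Over all genes, 1797 were called higher and 4890 lower. These counts were 4463 and 1404 with upper-quartile factors, 3209 and 2952 with median-of-ratios factors, 3687 and 1818 after the shift, and 1460 and 2182 with the 10 FPKM filter, which tests 6913 genes. Without single libraries they were 1497 to 1961 and 4212 to 4892. Of 126 list counts under the alternatives, 93 stayed within 1.5 times. No paired analysis was possible because the library columns carry other numbers than the sample titles.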

Other observations

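The nearest tested protein-coding genes on either side of the members were 14 genes. Only the members and the 62 listed imprinted genes were left out, so other imprinted genes may remain among them. Of the 14 genes 5 were called higher, 3 lower and 6 not called, beside 13.4% higher and 36.4% lower over all tested genes. Of the 8 called, 4 (Mrpl18, Fignl1, Sec61g and Sf3b5, all higher) were called under every scaling. Of all 13448 tested genes, 1298 were called higher under every scaling. Beside Meg3, Wdr25 (513 kb before it) had means of 6.29 and 3.95 FPKM (log2 change -0.60, limma adjusted p = 0.0520), and Ppp2r5c (875 kb after it) 61.2 and 68.8 (0.16, adjusted p = 0.193). Beside Plagl1, Sf3b5, a splicing factor subunit 51.3 kb away, was called higher (0.52, limma adjusted p = 0.00838), and Ltv1, 46.4 kb away on the other side, was not called (0.14, adjusted p = 0.413). Both neighbours of Grb10 were called higher, Fignl1 at 122 kb (1.28, limma adjusted p = 0.00014) and Sec61g at 4462 kb (1.02, adjusted p = 0.00176). Beside Gnas, Npepl1 was called lower (-0.66, limma adjusted p = 0.00097) and Nelfcd higher (0.34, adjusted p = 0.0253). Beside Igf2r, Mrpl18 was called higher (0.84, limma adjusted p = 0.00138) and Map3k4 was not called (-0.41, adjusted p = 0.0623). Tspan32, 338 kb beyond Igf2, was called lower (-0.78, limma adjusted p = 0.00412). So was Klf13, 1536 kb from Ndn (-0.84, limma adjusted p = 0.00124). Mrpl23 (0.30, limma adjusted p = 0.101) and Atp10a, 3517 kb from Ndn (-0.39, adjusted p = 0.133), were not called.

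One snoRNA gene of the 23 between Dlk1 and Dio3 had a value above 0, Gm24899 inside Rian, at 109.52 FPKM in WT3 and listed at 0 in the other 9 libraries.

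Likeness to a member was measured as Pearson's r over the 10 libraries of deviations from the group mean, among genes with a mean of 10 FPKM or more. All points share their libraries and scaling, so these are descriptions. Meg3 was most like Pttg1ip (0.961) and Ppcdc (0.920), Rian most like Ccz1 (0.863), and Grb10 most like Tgfbr3 (0.981) and Cluh (0.969). Ndn was most like Fnta (0.978) and Plpp2 (0.976), Gnas most like Klhdc2 (0.947) and Bag1 (0.919), and Igf2r most like Rbl2 (0.948) and Cltc (0.941). Between Meg3 and Rian the same measure was -0.625.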
